A study of Mus musculus with 4 samples.

Results

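The miR-15/16 family, with miR-195, was read from the 4 probes of the value table whose ID, without its prefix, was that of miR-15a, miR-15b, miR-16 or miR-195, out of 171 miRNA probes. Mouse activated T cells had been transduced with Foxp3, a transcription factor and the master regulator of regulatory T cells, or with the control vector. Total RNA of both, taken at 72 h and at 96 h, was hybridised together to 2-colour microRNA arrays. Each time point had 2 arrays with exchanged dyes, so that Foxp3 RNA was in Cy5 on replicate 1 and in Cy3 on replicate 2, 4 arrays in all. All RNA came from activated, transduced T cells, so the groups shared activation and transduction. The labels named neither the vector nor the share of cells that carried it, nor the source of the T cells.

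A microRNA guides Argonaute to messenger RNAs that pair with its seed, bases 2 to 8 from the 5′ end, and lowers their stability and translation. Members of the miR-15/16 family share 1 seed and are known for restraining the cell cycle and the survival gene Bcl2, and loss of the locus of miR-15a and miR-16 is a frequent event in chronic lymphocytic leukaemia. In T cells, miR-15 and miR-16 are known to limit cell division and the formation of memory cells. The family is encoded in clusters, in which 1 primary transcript can give more than 1 mature miRNA.

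The mature sequences below, from RefSeq (GRCm38.p6), show what the 4 probes have in common and where the miRNAs differ, with the seed in capitals and every sequence written 5′ to 3′.

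miR-15a: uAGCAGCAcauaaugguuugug

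miR-15b: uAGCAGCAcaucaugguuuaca

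miR-16: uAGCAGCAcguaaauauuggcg

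miR-195a: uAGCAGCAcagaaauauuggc

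The sequence of miR-15a lies at chr14:61632075-61632096 on the minus strand, within the bounds of the long non-coding RNA gene Dleu2. The sequence of miR-15b lies at chr3:69009775-69009796 on the plus strand, within the bounds of Smc4, which encodes a condensin subunit. The same miR-16 sequence comes from 2 genes, Mir16-1 at chr14:61631936-61631957 (minus strand), 117 bases from miR-15a, and Mir16-2 at chr3:69009918-69009939 (plus strand), 121 bases from miR-15b. A probe for miR-16 therefore cannot tell its 2 loci apart. The sequence of miR-195a lies at chr11:70235062-70235082 on the plus strand, 310 bases from that of miR-497a, another miRNA of the seed. Exons and introns were not assigned here.

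All 4 sequences were the same over their first 9 bases and at 12 of 21 positions in all. Counted from the 5′ end, miR-16 and miR-195a were the closest pair, with 2 differences over 21 positions, G10A and U11G (the base of miR-16 first). The next closest were miR-15a and miR-15b, with 4 differences over 22 positions, A12C, G20A, U21C and G22A (the base of miR-15a first). The farthest pair was miR-15b and miR-16, with 8 differences over 22 positions. The value table holds no probe sequence, so how far a probe also binds other members was not tested.

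RefSeq listed 10 mature mouse miRNAs with this seed. The other 6 (miR-195b, miR-322, miR-497a, miR-6342, miR-6353 and miR-6419) had no probe of that name in the table, nor had miR-424 and miR-503, so the family is described here from these 4 members alone. The platform annotation listed Mir15a, Mir15b and Mir195a for 3 of the 4 probes, and the probe of miR-16 was matched by its ID.

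Values were log ratios of the channels, read as base 2, and they hold no level, so neither the abundance of a member nor the T cell identity of the RNA could be read from them. Their direction was not given in the sources used here. In the turned reading, each value is Cy5 over Cy3 and its sign is reversed wherever Foxp3 RNA was in Cy3, so that values below 0 stand for less signal with Foxp3. In the other reading, the deposited values already are Foxp3 over control. Channel ratios set by the samples would correlate negatively between dye-exchanged arrays, whereas the deposited values of the 171 miRNA probes gave r = 0.66 for the 72 h pair and r = -0.12 for the 96 h pair (across probes, which are not independent replicates). The direction of every value below is therefore unsettled, and the results on the family are given in both readings. Replicate 1 of 96 h stood apart, with a median of 1.27 over its miRNA probes, where the medians of the other arrays ran from -0.83 to 0.02. In the turned reading, 14 probes fixed by ID as markers of other cell types had means of 0.28 to 1.05 (median 0.57), and 8 probes of blood cell miRNAs had means of -0.60 to 0.55 (median 0.17). Taken as already turned, these means ran from -1.26 to 3.24 (median -0.08) and from -0.30 to 0.77 (median 0.24). The highest were 1org-200a (3.24), 1org-200b (3.08) and 2org-200c (2.93), whose turned means were 0.28, 0.31 and 0.58. How far the dyes set values that keep their sign on dye-exchanged arrays was not tested. The part of the 14 and the 8 probes in the values of the family was not tested.

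As deposited, the probe of miR-15a was at -0.61 and 0.54 on the 72 h arrays with Foxp3 in Cy5 and in Cy3, and at -0.26 and 1.44 on the corresponding 96 h arrays. That of miR-15b was at -0.28 and 0.92 at 72 h and at -0.27 and 0.61 at 96 h. Both were thus below 0 on each array with Foxp3 in Cy5 and above 0 on each array with the dyes exchanged. The probe of miR-16 had the same alternation at a smaller size, -0.09 and 0.24 at 72 h and -0.10 and 0.11 at 96 h. The probe of miR-195, by contrast, was above 0 on all 4 arrays, at 0.08, 0.04, 0.86 and 0.13. Opposite signs on the 2 arrays of a time point were found for 48 of 171 probes at 72 h and 96 of 171 at 96 h, and for the same 3 members at both.

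**Figure D1:**
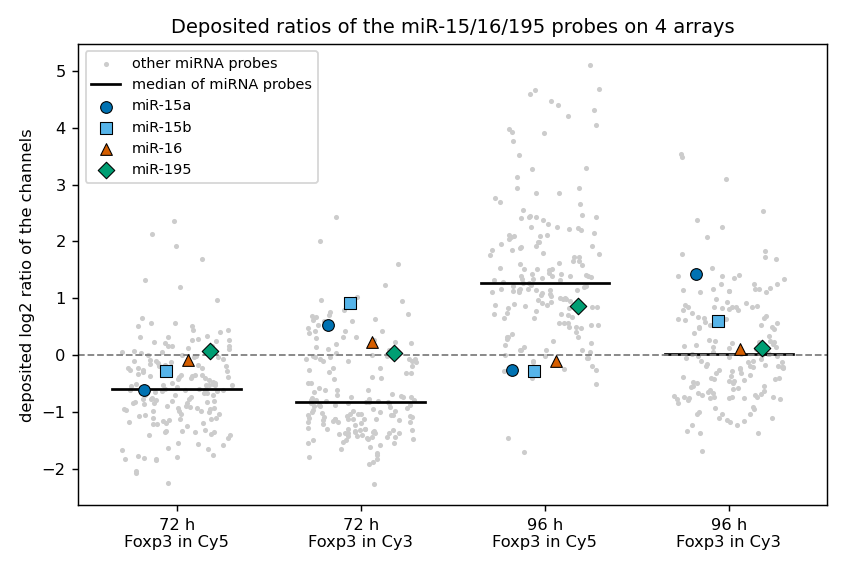
Deposited log2 channel ratios (vertical axis) of the 4 family probes (coloured symbols) and the other miRNA probes (grey points) on each of the 4 arrays, with the array median as a black line. The probes of miR-15a, miR-15b and miR-16 lie below 0 on both arrays with Foxp3 in Cy5 and above 0 on both with Foxp3 in Cy3, while that of miR-195 lies above 0 on all 4.

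The place of the members among the other miRNA probes varied from array to array. On 72 h replicate 2 (Foxp3 in Cy3), all 4 members were high, with 76.6% to 95.3% of miRNA probes below them. On 96 h replicate 1 (Foxp3 in Cy5), all 4 were under the array median, with 30.99% of probes below miR-195 and 2.92% to 6.43% below the other members. On 96 h replicate 2 (Foxp3 in Cy3), 92.4% of probes lay below miR-15a, 67.3% below miR-15b, 53.8% below miR-195 and 52.0% below miR-16. On 72 h replicate 1 (Foxp3 in Cy5), 45.6% lay below miR-15a and 81.3% below miR-195, with miR-15b and miR-16 between them.

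The first comparison asked how the family differed between Foxp3 and control vector over both time points. The 2 arrays of a time point share their RNAs and were averaged, so n was 2 time points, and SDs are between these. Separate cultures for the time points are not stated in the labels, so p-values measure only the spread between them, which may be technical, and precision is limited by there being only 4 arrays. In the turned reading, miR-15a had the lowest mean log2 ratio, -0.71 ± 0.19 (SD, n = 2), or 1.64-fold lower with Foxp3. The mean of miR-15b was -0.52 ± 0.11 (SD, n = 2), or 1.43-fold lower. For miR-16, the member that both clusters encode, it was -0.13 ± 0.04 (SD, n = 2), or 1.10-fold lower. The mean of miR-195 was 0.19 ± 0.24 (SD, n = 2), or 1.14-fold higher, a value smaller than its spread.

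None of the 4 passed limma's intercept test over 171 probes with Benjamini-Hochberg adjustment. The adjusted p was 0.578 for miR-15a, 0.580 for miR-15b, 0.886 for miR-16 and 0.801 for miR-195, with a standard error of 0.479 that limma pooled over all probes. This test called 0% of the 171 probes, and 16 had an unadjusted p under 0.05, so it does not separate the family from the other probes. Over 13 alternatives, the adjusted p of miR-15a ranged from 0.0552 to 0.999 and that of miR-15b from 0.0685 to 0.999, and no member passed in any of them. Without 72 h replicate 1, limma called 55% of all probes (94 of 171), and without 96 h replicate 1 it called 1.75%, in both cases with no member among them. The mean of miR-15a was -0.42 without 96 h replicate 2, and that of miR-195 was -0.06 without 96 h replicate 1. Leaving out 1 array leaves its time point with 1 dye orientation, so an offset shared by both arrays no longer cancels in the turned mean. The lowest adjusted p of miR-15a and that of miR-15b came from such a fit, the one without 72 h replicate 1. Taken as already turned, the means were 0.28 ± 0.44 for miR-15a, 0.24 ± 0.11 for miR-15b, 0.04 ± 0.05 for miR-16 and 0.28 ± 0.31 for miR-195 (SD, n = 2 each). There limma called 1.75% of all probes and no member, each member having an adjusted p of 0.998.

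Of the 4 members, 3 (miR-15a, miR-15b and miR-16) were below 0 on all 4 arrays in the turned reading, as were 5.85% of all miRNA probes (10 of 171). No member was above 0 on all 4, against 1.75% of all probes. The count depended on where 0 was placed. With the miRNA median of every array set to 0, miR-15a alone of the members was below 0 on all 4 arrays, against 3.51% of all probes, although its value on 72 h replicate 1 was then only -0.02. Centred on the median of the U6 and 4 tRNA control probes, miR-15a was again the 1 member below 0 on all 4 arrays, at -0.34, -0.88, -0.69 and -0.35, against 4.68% of all probes. Taken as already turned, the 1 member with 1 sign throughout was miR-195, above 0 on all 4 arrays as were 7.02% of all probes.

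**Figure D2:**
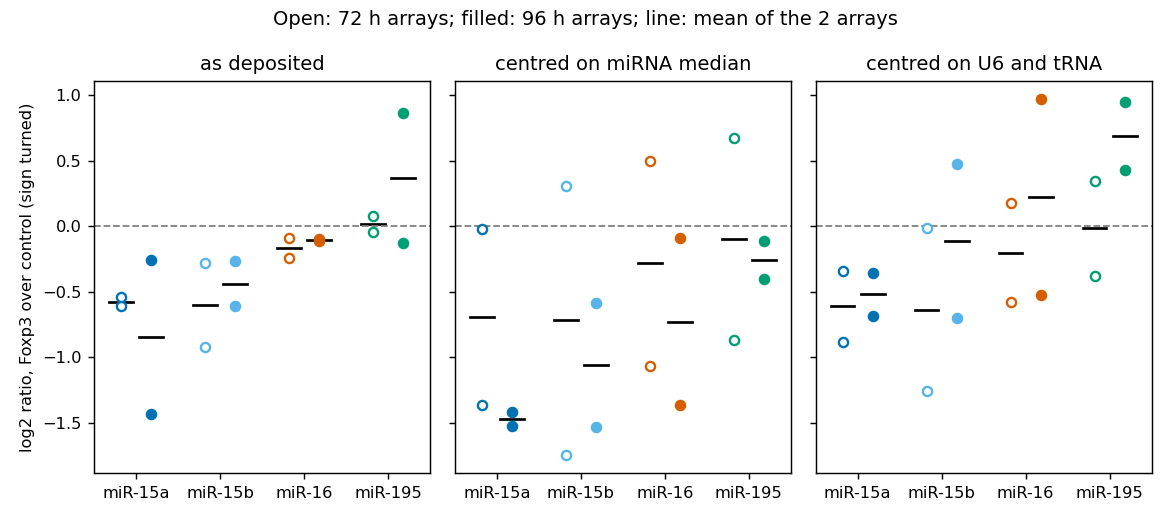
Log2 ratios of Foxp3 over control in the turned reading (vertical axis) for each family member as deposited, with arrays centred on the miRNA median, and with U6 and tRNA as the centre. Points are single arrays (open at 72 h, filled at 96 h) and lines the mean of both arrays of a time point; the points of miR-15a stay below 0 in all 3 panels, while those of the other members cross 0 in at least 1.

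At 72 h, the turned log2 ratio was -0.58 for miR-15a, from -0.61 and -0.54 on the 2 arrays, and -0.60 for miR-15b, from -0.28 and -0.92. As deposited, the size of miR-15a was thus nearly the same in both dye orientations, whereas that of miR-15b differed between them. This depended on the centring. The 2 arrays of miR-15a were at -0.02 and -1.37 centred on the miRNA median, and at -0.34 and -0.88 centred on U6 and tRNA. Without centring, the means were -0.16 for miR-16 and 0.02 for miR-195, whose arrays lay on both sides of 0. A time point is 1 replicate, so values at a single time point have no test. Past 1.5-fold with 1 sign on both arrays was only miR-15b, at 1.51-fold, against 5.26% of all probes on this side, while miR-15a stood just short of the threshold at 1.49-fold.

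At 96 h, the turned log2 ratio was -0.85 for miR-15a, but from -0.26 and -1.44 on the 2 arrays. The ratio of miR-15b was -0.44, from -0.27 and -0.61, and that of miR-16 was -0.10, from -0.10 and -0.11. For miR-195 it was 0.37, from 0.86 on replicate 1 and -0.13 on replicate 2, so that its value above 0 rested on the array that stood apart. Past 1.5-fold was miR-15a, at 1.80-fold lower, against 5.26% of all probes on this side, whereas 46.2% of all probes were past 1.5-fold on the higher side and no member was.

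Centring moved these counts. With the miRNA median of every array set to 0, miR-15a (log2 -1.47), miR-15b (-1.06) and miR-16 (-0.73) passed 1.5-fold on the lower side at 96 h, as did 25.1% of all probes, and miR-15a alone (-0.69) at 72 h, against 3.51%. Centred on U6 and tRNA, miR-15a (-0.61) and miR-15b (-0.64) passed on the lower side at 72 h, against 5.26%. At 96 h none did, against 2.34%, and miR-195 (0.69) passed on the higher side, as did 63.2% of all probes. Taken as already turned, no member passed on the lower side, where 53.2% of all probes did at 72 h and 0% at 96 h. On the higher side no member passed, against 2.92% of all probes at 72 h and 33.9% at 96 h, where miR-15a, at 0.59, had opposite signs on its 2 arrays. When that reading was also centred on the miRNA median, a combination added after the data had been seen, miR-15b (1.03), miR-16 (0.78) and miR-195 (0.77) passed on the higher side at 72 h, as did 29.8% of all probes. No member did so at 96 h, against 10.5%.

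The other reading is the plain mean of the 2 deposited values of a time point, and the turned reading is their mean after the sign of 1 is reversed. For miR-15a at 72 h, the turned mean was -0.58 and the plain mean -0.04, and only 5 of 171 probes had a plain mean nearer to 0. For miR-16 at 96 h, the plain mean was 0.01, nearer to 0 than that of any other miRNA probe. The size of the plain mean was 0.04 to 0.32 for the 4 members at 72 h, where the median size over all miRNA probes was 0.75. At 96 h it was 0.01 to 0.59, where that median was 0.65. Plain means move with the centring of the arrays, so the small values hold for the data as deposited.

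**Figure D3:**
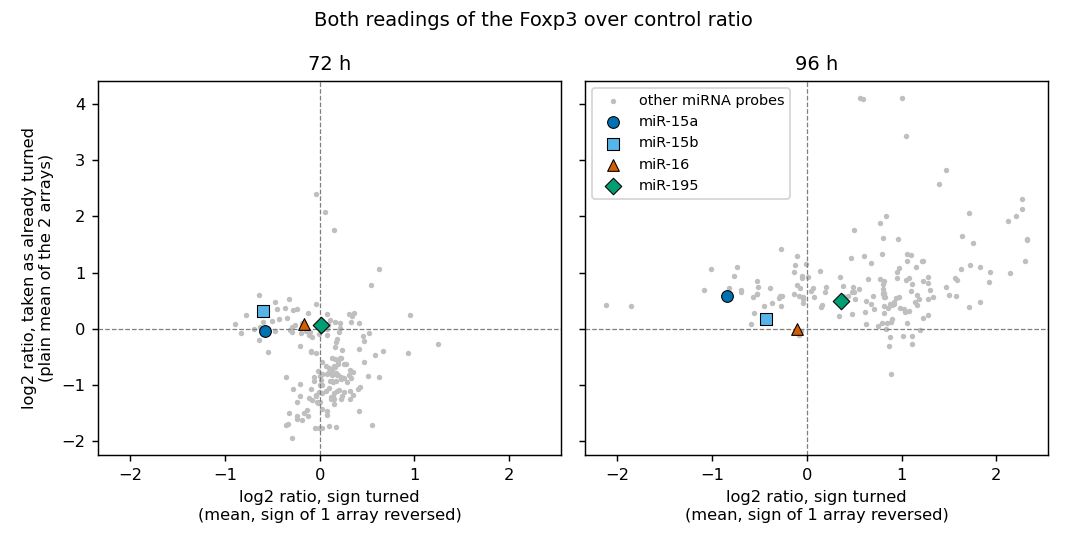
Each miRNA probe at 72 h (left) and 96 h (right), with its turned log2 ratio on the horizontal axis and the ratio taken as already turned on the vertical axis; family members are coloured. The members lie at -0.60 to 0.02 on the horizontal axis at 72 h and at -0.85 to 0.37 at 96 h, and at -0.04 to 0.59 on the vertical axis over both.

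The second comparison asked whether the family's ratio changed between the time points. In the turned reading, 96 h minus 72 h was -0.27 for miR-15a, 0.16 for miR-15b, 0.06 for miR-16 and 0.35 for miR-195. None passed the term for a change of the Foxp3 effect with time that limma fitted to the 4 arrays (adjusted p = 0.991 for each, standard error 1.56). It called 0% of 171 probes, with 0 at an unadjusted p under 0.05. Arrays of a time point share their RNAs, so this p cannot test a change between replicates. The fit leaves 1 residual degree of freedom, which is the shift of a probe's plain mean from 72 h to 96 h. Its standard error pools that shift over all probes, and the median plain mean was -0.67 at 72 h and 0.65 at 96 h. Centred on the miRNA median, the standard error was 0.75 and 10 probes had an unadjusted p under 0.05. Centred on U6 and tRNA, these were 0.82 and 32, and neither centring gave a call. Each of the 4 differences was smaller than the larger gap between that member's dye-exchanged arrays at 1 time point, which was 1.18 for miR-15a, 0.64 for miR-15b, 0.155 for miR-16 and 0.99 for miR-195. In the other reading the differences were 0.62, -0.15, -0.07 and 0.43, and limma called 1.17% of all probes and no member.

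The members were then compared with each other within each array, which makes the result independent of the centring. In the turned reading their means were ordered miR-15a, miR-15b, miR-16 and miR-195 from lowest to highest. The ratio of miR-15a was below that of miR-16, its cluster partner on chromosome 14, on all 4 arrays, by 0.52, 0.30, 0.16 and 1.33, with a mean difference of -0.58 ± 0.23 (SD, n = 2). The ratio of miR-15b was below that of miR-16, its partner on chromosome 3, on all 4 arrays as well, by 0.19, 0.68, 0.17 and 0.50, with a mean difference of -0.38 ± 0.07 (SD, n = 2). Both miR-15 members thus lay to the same side of the miR-16 that both clusters encode.

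Neighbours at the ends of the order were less clearly apart. The difference of miR-15a and miR-15b had 2 arrays on each side of 0, with a mean of -0.19 ± 0.31 (SD, n = 2). That of miR-16 and miR-195 was below 0 on 3 of 4 arrays, with a mean of -0.33 ± 0.20 (SD, n = 2), and was 0.02 on 96 h replicate 2. Against miR-195, both miR-15a (-0.90 ± 0.44) and miR-15b (-0.71 ± 0.13) were lower on 4 of 4 arrays (SD, n = 2). With 2 time points a sign-flip test cannot go below an exact p of 0.5, so these differences have no test. Taken as already turned, the order did not hold, since miR-15a minus miR-16 averaged 0.24 and miR-15b minus miR-16 averaged 0.20, each with 2 arrays on either side of 0.

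Likeness of pattern was measured as the Euclidean distance over the 4 deposited values, which neither the reading of the sign nor the centring changes. Within the family the nearest pair was miR-15b and miR-16, at 0.88, followed by miR-15a and miR-15b at 0.97 and miR-16 and miR-195 at 1.00, where the median over 14535 pairs of miRNA probes was 2.14. The farthest pair was miR-15a and miR-195, at 1.92. Closeness in sequence was thus not the order of closeness in ratio, as miR-15b and miR-16, printed above, differ at more positions than any other pair. The 6 pairs share members and arrays, so this is a description.

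None of the members was among the 3 nearest probes of another. Nearest to miR-15a were 1org-142-as at 0.36, 2org-19a at 0.48 and 1org-34c at 0.51. Nearest to miR-15b were 2org-142* at 0.33, 1org-7d, a let-7 probe, at 0.41 and 2org-17-5p at 0.51. A probe with the ID of miR-142, a miRNA of blood cells, thus stood first for both miR-15 members. Another probe of that ID, 1org-142-s, went the other way. Its turned mean was 0.55, where that of 1org-142-as was -0.60 and that of 2org-142* was -0.52. Taken as already turned, these means were -0.30, 0.41 and 0.22. Nearest to miR-16 were 2org-321 at 0.39, 2org-17-5p at 0.69 and 1org-29a at 0.78, and nearest to miR-195 were 1org-297 at 0.31, 1org-7d* at 0.44 and 1org-191 at 0.46.

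The probes of miR-103 and miR-107 were examined because these miRNAs, encoded in genes of pantothenate kinases and known for a role in metabolism, carry the 7 letters of the family's seed displaced by 1 base, at bases 1 to 7 (in capitals).

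miR-103: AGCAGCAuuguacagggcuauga

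miR-107: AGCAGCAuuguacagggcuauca

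Their RefSeq sequences (GRCm38.p6) lie at chr2:131288103-131288125 and chr11:35782447-35782469 (miR-103, both on the plus strand) and at chr19:34820700-34820722 (miR-107, minus strand). In the turned reading, miR-103 had a mean of -0.17 ± 0.04 and miR-107 one of -0.02 ± 0.03 (SD, n = 2 each). On the 96 h arrays, turned, miR-103 was at 0.48 and -0.75 and miR-107 at 0.49 and -0.58, so that both had opposite signs there, whereas miR-15a, miR-15b and miR-16 had 1 sign. As deposited this turns around, since the same arrays held 0.48 and 0.75 for miR-103 and 0.49 and 0.58 for miR-107. Taken as already turned, the means were 0.27 ± 0.49 for miR-103 and 0.22 ± 0.44 for miR-107 (SD, n = 2 each). Turned, the means of this pair were thus nearer to that of miR-16 than to those of miR-15a and miR-15b, and in the other reading it was the reverse.

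Beside other growth-related families, the median of the family's means in the turned reading was -0.33, where the median over all 171 miRNA probes was 0.45. It was -0.37 for the 9 probes of let-7, which restrains growth genes, with means from -0.65 (1org-7g) to 0.64 (1org-98). For the miR-17 clusters, known as drivers of lymphocyte growth, the median of 9 probes was -0.32, with means from -0.86 (1org-20) to -0.08 (1org-92). Below 0 at both time points were 3 of 4 family members, 6 of 9 let-7 probes and 8 of 9 miR-17 probes, against 19.3% of all miRNA probes. These counts were 4, 7 and 9 with the miRNA median as the centre (31% of all probes), 2, 3 and 4 with U6 and tRNA as the centre (11.7%), and 0 for each group in the other reading (5.26%). Below 0 on all 4 arrays were 3 of 4 family members, 0 of 9 let-7 probes and 2 of 9 miR-17 probes, against 5.85% of all probes. Values near 0 set part of this contrast. The let-7 probes 1org-7d (0) and 1org-7a (0.006 and 0.004) missed the count only by values on replicate 1 arrays, where miR-16 met it at -0.09 and -0.10. The contrast of the groups was lost in the other settings, with 1, 0 and 0 for the miRNA median as the centre (3.51% of all probes), 1, 1 and 0 for U6 and tRNA (4.68%), and 0 for each group in the other reading (0%). In the other reading the medians were 0.26 for the family, 0.50 for let-7, 0.34 for the miR-17 clusters and 0.11 for all miRNA probes. The lists differ in size, the differences between them were not tested, and nothing here is particular to the family.

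**Figure D4:**
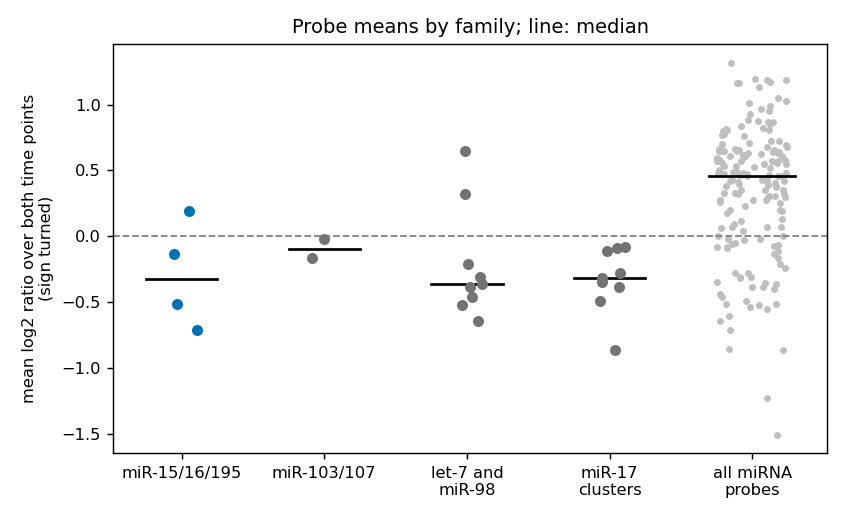
Mean log2 ratio over both time points in the turned reading (vertical axis) for each probe of 4 miRNA groups and for all miRNA probes, with the median of each group as a line. The medians of the miR-15/16 family (-0.33), let-7 with miR-98 (-0.37) and the miR-17 clusters (-0.32) lie close together and below that of all miRNA probes (0.45).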

How the data were processed

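The authors' deposited table gave each probe 1 log ratio on each of the 4 arrays, without missing values, and it was taken as log2. Its base, scanner, background correction, normalization and direction are not given in the sources used here. Scanner intensities, filters on dim probes and slide effects were not analysed here. Groups were the time points from the labels, and replicate numbers followed the accession order. The 7 control probes were left out. Signs were turned, the 2 arrays of a time point averaged, and an intercept-only model fitted with limma 3.58.1 in R 4.3.3 over 171 probes (1 residual degree of freedom, Benjamini-Hochberg adjusted p under 0.05, two-sided). The difference between time points was a Foxp3 by time term with a dye term over the 4 arrays. Only the intercept-only fit was run on simulated data, of independent values without array offsets, and its result is not reported here. Counts past 1.5-fold needed 1 sign on both arrays. Named probes were by rule all members, the 3 nearest probes of each, and the lowest and highest of each compared list. The probes 1org-200b, 2org-200c and 1org-7a lay outside this rule and were named for their values. Alternatives were 2 centrings, the other reading, leaving out each array in turn, fits to single arrays with and without a dye block, natural logs, control probes included and robust variance. The other reading with centring was added for the 1.5-fold counts after the data had been seen. The members and lists were chosen with earlier results of these data known.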

Additional observations from a re-analysis of the deposited data

How the results depend on the processing

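No member passed limma under any alternative run, and the number of probes called over all 171 was 0 as deposited, 2 centred on the miRNA median, 3 in the other reading, 7 with both, and 0 to 94 with 1 array left out (94 without 72 h replicate 1, 3 without 96 h replicate 1). With the replicate number, which stands for the dye orientation, as a replicate block, limma over the 4 arrays called 0 probes and gave miR-15a -0.71 at an adjusted p of 0.800; the same fit without the block also called 0. Read as natural logs, all means grow by the same factor, to -1.03 for miR-15a.

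In the other reading the means were 0.28 for miR-15a, 0.24 for miR-15b and 0.042 for miR-16, and with centring on the miRNA median as well 0.31, 0.28 and 0.074. The mean of miR-16 was 0.011 centred on U6 and tRNA, and that of miR-195 was -0.18 centred on the miRNA median. With 1 array left out, means ranged from -1.005 to -0.42 for miR-15a, -0.68 to -0.36 for miR-15b, -0.17 to -0.10 for miR-16 and -0.056 to 0.44 for miR-195, which changed sign without 96 h replicate 1. In these fits the time point of the missing array rests on 1 dye orientation, so an offset shared by both arrays stays in the mean.

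Members past 1.5-fold on the lower side at 72 h were 1 as deposited, 2 centred on U6 and tRNA, and 0 in the other reading or at 2-fold. At 96 h they were 1 as deposited, 3 centred on the miRNA median, and 0 centred on U6 and tRNA, in the other reading or at 2-fold; on the higher side 1 passed at 96 h centred on U6 and tRNA. In the other reading centred on the miRNA median, added after the data had been seen, 3 passed on the higher side at 72 h, 0 on the lower side at either time point and 0 on the higher side at 96 h.

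Between time points, limma called 2 probes in the other reading. The 96 h minus 72 h difference changed sign for miR-15a (0.092 centred on U6 and tRNA, 0.62 in the other reading), miR-15b (-0.34 centred on the miRNA median, -0.15 in the other reading), miR-16 (-0.44 and -0.072) and miR-195 (-0.16 centred on the miRNA median). With 1 array left out it ranged from -0.86 to 0.32, -0.16 to 0.48, -0.018 to 0.14 and -0.15 to 0.84, and that fit has no residual degrees of freedom, so its test was not run.

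Differences among members in the other reading were 0.033 (miR-15a minus miR-15b), 0.24 (miR-15a minus miR-16) and -0.0023 (miR-15a minus miR-195). The remaining differences there were 0.20 (miR-15b minus miR-16), -0.035 (miR-15b minus miR-195) and -0.24 (miR-16 minus miR-195). With 1 array left out, in the turned reading, the differences among members ranged, in the same order, from -0.40 to 0.018, -0.87 to -0.28, -0.95 to -0.85, -0.50 to -0.26 and -0.87 to -0.55, and from -0.57 to -0.082 for miR-16 minus miR-195. Centring subtracts a constant from each array, and the other reading leaves the signs unturned, so the changes of sign in those settings follow from these steps. The changes of sign with 1 array left out came without either step. Which setting comes nearest to the RNA was not tested.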
